A study of Mus musculus with 8 samples.

Results

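A set of genes of transforming growth factor beta (TGF-beta) signalling were followed through mouse cells on the way from embryonic stem cells to sorted Sca1 cells, and through a knock-down of the lysine methyltransferase Set7. They were chosen by name, with earlier results of these data known. They were the ligand genes Tgfb1, Tgfb2 and Tgfb3, the latency gene Ltbp1, the receptor genes Tgfbr1 and Tgfbr2, the signal transducer Smad3, and the feedback or early-response genes Smad7, Pmepa1 and Klf10. They are 10 of the 23483 genes in the count table, and each is represented by its transcript row with the highest total. The series asks what Set7 does as stem cells become smooth muscle cells. Poly(A)-selected RNA was sequenced (Illumina Genome Analyzer IIx) as 8 libraries, 2 in each of 4 groups.

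All 4 groups were of strain C57BL/6 and grown at a glucose concentration of 5.5 mM. The first group (mESC) was embryonic stem cells without a construct, from a stock kept with the cytokine LIF. The second (untreated Sca1) was cells without a construct, which had been differentiated on gelatin for 4 days without LIF, sorted with magnetic beads for Sca1 and grown on without LIF. Sorted cells were given as over 80% pure and were expanded for 2 to 8 population doublings. The third (NTC) was Sca1 cells with a lentiviral non-target shRNA control, and the fourth (knock-down) was Sca1 cells with a lentiviral shRNA against Set7, both selected with puromycin at 1 µg/ml for a week or more. NTC thus differs from untreated Sca1 by the virus and the selection, and in part by the library code in the sample descriptions. The untreated Sca1 libraries carry the codes 34 and 56 and the NTC libraries 12 and 34. These differences cannot be told apart. The knock-down rests on 1 shRNA sequence, and the labels do not say that the 2 libraries of a group came from separate cultures. The p-values therefore cover the spread between the libraries at hand, which may be technical.

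TGF-beta ligands are secreted in a latent complex. The propeptide stays bound to the mature ligand, and a latent TGF-beta binding protein such as the product of Ltbp1 ties the complex to fibrillin and fibronectin fibres until integrins, thrombospondin or proteases release it. The free ligand is bound by the type II receptor (Tgfbr2), which phosphorylates the type I receptor (Tgfbr1), which in turn phosphorylates SMAD2 and SMAD3. These enter the nucleus with SMAD4 and act on collagen, contractile and inhibitor genes. Among the inhibitors, SMAD7 blocks the type I receptor and PMEPA1 holds back receptor-activated SMADs, while KLF10 is a transcription factor first described as TGF-beta inducible. In smooth muscle, TGF-beta is known as an inducer of contractile genes.

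Counts summed over genes ran from 2507938 to 5080266 per library, so that 1 read was worth 0.220 to 0.442 CPM (read counts scaled to library size with TMM factors). Setd7, which encodes Set7, checks the labels: NTC held 60.7 and 66.6 CPM of it, knock-down 14.0 and 10.8 CPM (log2 fold change -2.39 ± 0.20 SE, adjusted p = 1.71e-07 by edgeR's quasi-likelihood test). Ly6a, which encodes the sorted protein Sca1, did not separate the Sca1 cells from the stem cells: it stood at 9.85 and 5.72 CPM in mESC and at 12.98 and 4.42 CPM in untreated Sca1 (adjusted p = 0.671). The sums of 8 undifferentiated stem cell markers were 3376 to 3640 CPM in mESC, 2032 to 2362 CPM in untreated Sca1, 2172 to 2234 CPM in NTC and 2727 to 2904 CPM in knock-down, so stem cell transcripts were present in every group. Klf4, Esrrb, Zfp42 and Tdgf1 had lower means in each Sca1 group than in mESC. Pou5f1 did too, but its mESC libraries, at 844 and 575 CPM, overlapped those of untreated Sca1 and knock-down. Nanog, Sox2 and Dppa5a did not. Nanog had means of 195 CPM in mESC, 187 CPM in untreated Sca1, 198 CPM in NTC and 249 CPM in knock-down. In the same groups Sox2 had means of 398, 303, 291 and 404 CPM, and Dppa5a 435, 327, 430 and 569 CPM. The second mESC and second untreated Sca1 libraries stood apart in 1 row, NR_046233, which held 11.5% and 12% of their counts against 0.40% to 1.62% in the other 6. Both carry the library code 56 in the sample descriptions, where the other libraries carry 12 or 34. The 2 libraries of a group differed by a chi-square per degree of freedom of 54.9 in mESC and 40.3 in untreated Sca1, against 1.54 in NTC and 2.08 in knock-down. Without that row the values were 20.3, 12.8, 1.49 and 1.84, so mESC and untreated Sca1 varied more between libraries than the groups with which the fit shares its spread.

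The promoters of Tgfb2 and Ltbp1 are shown here because both genes were called in each of the 3 comparisons below, and that of Tgfb1 as the other ligand gene with a window. RefSeq windows (GRCm38.p6) matched 6 of the 10 genes, with 8 windows in all, and covered Tgfb1, Tgfb2, Ltbp1, Tgfbr1, Tgfbr2 and Smad3. Each sequence gives the 250 bases before a start site, 5′ to 3′ on the gene's strand. Capitals mark matches to the motifs named after the sequences.

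Tgfb2, chr1:186705990-186706239, minus strand: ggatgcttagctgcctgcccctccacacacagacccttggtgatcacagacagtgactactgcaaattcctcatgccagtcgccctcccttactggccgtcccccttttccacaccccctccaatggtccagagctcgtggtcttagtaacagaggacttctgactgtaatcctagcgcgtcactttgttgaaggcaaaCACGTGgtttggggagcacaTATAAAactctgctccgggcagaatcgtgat

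Ltbp1 (long form), chr17:75005279-75005528, plus strand: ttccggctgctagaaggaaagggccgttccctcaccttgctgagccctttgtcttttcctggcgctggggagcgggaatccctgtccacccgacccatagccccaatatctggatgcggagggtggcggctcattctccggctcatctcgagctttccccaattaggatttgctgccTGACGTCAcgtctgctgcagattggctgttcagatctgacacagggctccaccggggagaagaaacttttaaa

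Ltbp1 (short form), chr17:75178531-75178780, plus strand: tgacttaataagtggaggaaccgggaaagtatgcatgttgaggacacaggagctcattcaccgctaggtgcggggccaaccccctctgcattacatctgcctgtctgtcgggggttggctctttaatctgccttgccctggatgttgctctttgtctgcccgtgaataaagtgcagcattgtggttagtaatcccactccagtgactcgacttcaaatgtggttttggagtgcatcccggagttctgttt

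Tgfb1, chr7:25686752-25687001, plus strand: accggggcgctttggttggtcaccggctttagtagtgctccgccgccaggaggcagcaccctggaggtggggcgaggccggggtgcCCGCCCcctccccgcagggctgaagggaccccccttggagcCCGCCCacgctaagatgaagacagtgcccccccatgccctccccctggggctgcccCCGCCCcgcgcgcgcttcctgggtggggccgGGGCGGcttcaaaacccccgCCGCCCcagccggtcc

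The windows of the ligand genes differed in base composition. The Tgfb2 window was 53.6% G and C with 8 CpG dinucleotides, close to the median of 52.4% and 6 CpG over the same stretch of all 32851 RefSeq windows, and the Tgfb1 window was 75.2% G and C with 21 CpG. Motifs were searched on both strands. The Tgfb2 window held an E-box (CACGTG, in 6.02% of all windows) 51 bases upstream and a TATA box (TATAAA, in 12.4%) 31 bases upstream of the start site, and the long-form Ltbp1 window held a cyclic AMP response element (TGACGTCA, in 1.55%) 73 bases upstream. The Tgfb1 window held 5 GC boxes (GGGCGG, in 32.7% of all windows), the upstream Tgfbr1 window 2 and the Smad3 window 2. The SMAD-binding palindrome GTCTAGAC (0.167% of windows), the AP-1 site TGANTCA (6.75%) and the TEAD core GGAATG (12.6%) were not among the letters of these 8 windows. A match describes the letters alone.

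Among the ligand genes, Tgfb2 was the one with the widest range. It was counted 0 and 4 times in the mESC libraries, which is 0 and 0.88 CPM, against 38.3 and 38.0 CPM in untreated Sca1, 70.2 and 66.0 CPM in NTC and 5.95 and 7.47 CPM in knock-down. The groups did not overlap, and the knock-down libraries lay between mESC and the other Sca1 groups. Tgfb2 was higher in untreated Sca1 than in mESC by 6.31 ± 0.40 on the log2 scale (SE, adjusted p = 2.56e-09), with a ratio of counts of 85.1 and an exact 95% counting interval of 32.7 to 315. The 4 reads of the mESC group all came from its second library. Without that library, and with the other one set at a floor of 3 counts, Tgfb2 was at least 55.6-fold higher in untreated Sca1.

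In the knock-down libraries Tgfb2 was lower than in NTC by a log2 fold change of -3.31 ± 0.24 (adjusted p = 2.45e-08), which is 9.9-fold. The difference was -3.45 between the libraries of code 12 and -3.06 between those of code 34. The knock-down level stayed above mESC (ratio of counts 15.3, interval 5.64 to 58.5, adjusted p = 4.48e-05). NTC was in turn 1.78-fold above untreated Sca1 (0.83 ± 0.20, adjusted p = 0.0192). Between the NTC and untreated Sca1 libraries of code 34 the log2 difference was 0.78. The call of NTC against untreated Sca1 did not hold in every fit that left out 1 library, where the log2 fold change ran from 0.789 to 0.878. In bulk RNA, fewer cells that express a gene and less RNA of it per cell cannot be told apart, here or in any result that follows.

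Tgfb3 followed the same order at a lower level. Its counts were 3 and 1 in mESC, 12 and 8 in untreated Sca1, 26 and 33 in NTC and 3 and 6 in knock-down, which is 0.69 and 0.22, 3.71 and 3.53, 6.15 and 7.36, and 1.05 and 1.32 CPM. No groups overlapped, but each rests on few reads. Untreated Sca1 was higher than mESC by 2.93 ± 0.64 (adjusted p = 0.00173), with a ratio of counts of 8.10 (interval 2.71 to 32.6). Knock-down was lower than NTC by a log2 fold change of -2.45 ± 0.47 (adjusted p = 0.00152), with a ratio of counts of 0.180 (interval 0.0783 to 0.365). Between the libraries of 1 code that difference was -2.08 (code 12) and -2.10 (code 34). Tgfb3 did not differ past the threshold between any neighbours in the order of its levels: knock-down against mESC gave adjusted p = 0.206, knock-down against untreated Sca1 0.0622 and NTC against untreated Sca1 0.226. The knock-down against untreated Sca1 difference passed without the first or the second mESC library (adjusted p = 0.0486 and 0.0472).

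Tgfb1, the ligand gene expressed most widely in the body, was present in all 4 groups. It stood at 8.70 and 6.16 CPM in mESC, 9.58 and 9.72 CPM in untreated Sca1, 13.9 and 12.7 CPM in NTC and 5.95 and 6.59 CPM in knock-down. The mESC and knock-down libraries overlapped and the NTC libraries were the highest. The difference between untreated Sca1 and mESC did not pass the threshold (0.38 ± 0.30, adjusted p = 0.346), nor did that between NTC and untreated Sca1 (0.46 ± 0.28, adjusted p = 0.363). Knock-down was 2.1-fold below NTC (log2 fold change -1.07 ± 0.28, adjusted p = 0.0146). That call was lost when any 1 of the 4 libraries compared was left out (adjusted p up to 0.14) and with DESeq2 (adjusted p = 0.107), and the values within codes 12 and 34 were -1.16 and -0.89.

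**Figure D1:**
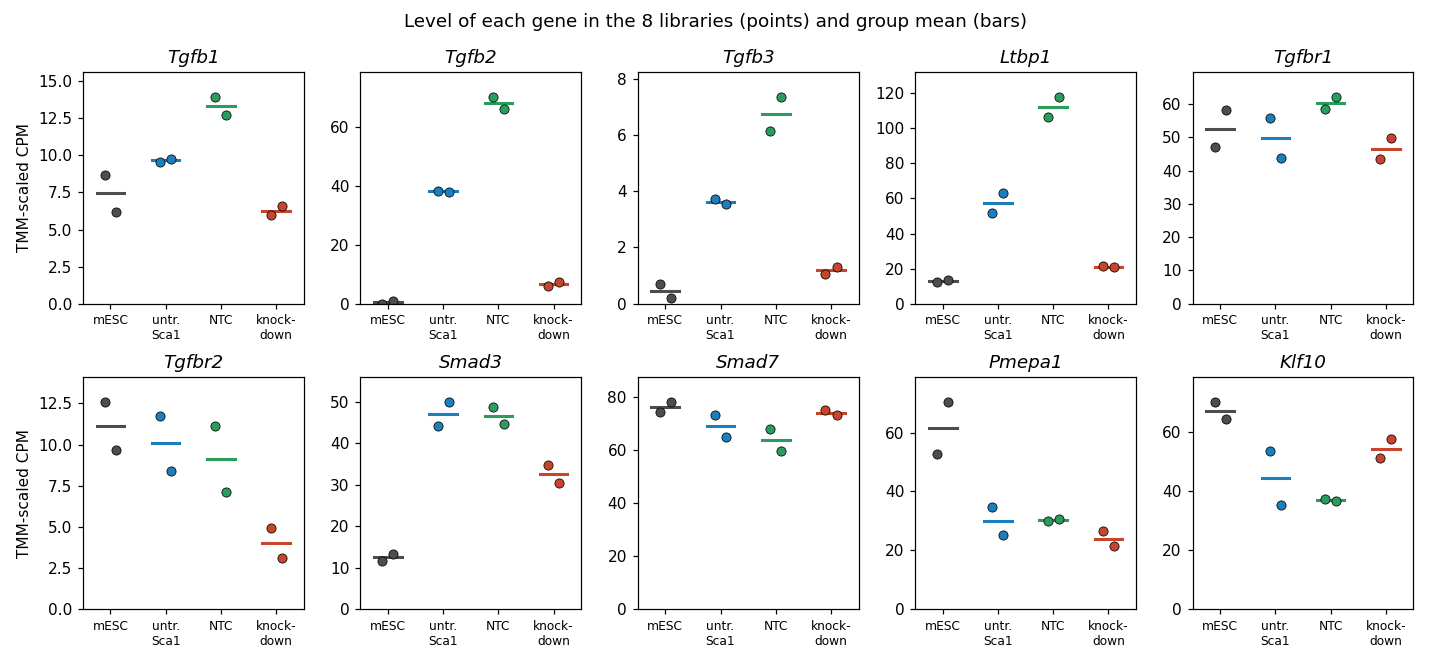
Levels of the 10 genes in CPM (TMM-scaled, linear axes from 0, 1 panel per gene with its own scale) in the 4 groups; each point is 1 library and each bar the mean of 2. Tgfb2, Tgfb3 and Ltbp1 are lowest in mESC, low in knock-down and highest in NTC, while all 8 libraries of Smad7 lie between 59.7 and 78.1.

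Set per kilobase of transcript, the ligand genes changed places between the groups. Mean levels in mESC were 3.42 CPM per kilobase for Tgfb1, 0.086 for Tgfb2 and 0.134 for Tgfb3, so that Tgfb1 was the most abundant ligand transcript there. In untreated Sca1 the levels were 7.46 CPM per kilobase for Tgfb2, 4.44 for Tgfb1 and 1.07 for Tgfb3, and in NTC they were 13.3, 6.13 and 2.00 in the same order. Tgfb2 was thus first among the ligand genes in both. In the knock-down libraries Tgfb1 was first again, at 2.88 CPM per kilobase, with Tgfb2 at 1.31 and Tgfb3 at 0.350. These lengths are those of the transcript models and the order is a description without a test.

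Ltbp1, whose product binds the latent ligand and anchors it in the matrix, had the same order of group means as Tgfb2 and Tgfb3. It stood at 12.6 and 13.4 CPM in mESC, 51.9 and 63.2 CPM in untreated Sca1, 106 and 118 CPM in NTC and 21.4 and 20.9 CPM in knock-down. All 4 groups were separate, in the order mESC, knock-down, untreated Sca1 and NTC. Untreated Sca1 was 4.38-fold above mESC (2.13 ± 0.18, adjusted p = 5.91e-08). Knock-down was 5.31-fold below NTC (log2 fold change -2.41 ± 0.16, adjusted p = 9.75e-09), with -2.29 within code 12 and -2.47 within code 34.

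NTC was 1.96-fold above untreated Sca1 (0.97 ± 0.15, adjusted p = 0.00115) for Ltbp1, a call kept in all 8 fits with 1 library left out, with adjusted p up to 0.0497. Knock-down was 1.62-fold above mESC (0.69 ± 0.19, adjusted p = 0.0127), a call lost without either knock-down library (adjusted p = 0.0696 and 0.0845). Each neighbouring step in the order of Ltbp1 levels therefore passed the threshold, as it did for Tgfb2 and for no other of the 10 genes. Between the NTC and untreated Sca1 libraries of code 34, the log2 difference of Ltbp1 was 1.175.

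The count table holds a second Ltbp1 row, NM_206958, for the short form. It differs from the row used, NM_019919, at its start in the GENCODE models, and reads in the shared exons may be counted in both rows. Its count was 70.9% and 65.6% of the long-form count in mESC, 87.5% and 83.9% in untreated Sca1, 86.7% and 88.5% in NTC and 63.9% and 78.9% in knock-down. The share was higher in the 4 untreated Sca1 and NTC libraries than in the other 4. The reads counted in the long form beyond the short form were 16 and 21 in mESC, 21 and 23 in untreated Sca1, 60 and 61 in NTC and 22 and 20 in knock-down. The 2 rows may share reads, so no test of the share was made.

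Neither receptor gene was called between untreated Sca1 and mESC. Tgfbr1, the type I receptor, stood at 47.2 and 58.1 CPM in mESC, 55.9 and 43.7 CPM in untreated Sca1, 58.6 and 62.2 CPM in NTC and 43.4 and 49.7 CPM in knock-down. The mESC and untreated Sca1 libraries overlapped (log2 fold change -0.07 ± 0.17, adjusted p = 0.792). Knock-down lay below NTC by 1.29-fold without passing the threshold (log2 fold change -0.37 ± 0.16, adjusted p = 0.151). That difference passed in a fit of the compared groups alone (adjusted p = 0.012) and with both libraries of code 56 left out (adjusted p = 0.0107).

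Tgfbr2, the type II receptor that binds the ligand, stood at 12.6 and 9.68 CPM in mESC, 11.7 and 8.39 CPM in untreated Sca1 and 11.1 and 7.13 CPM in NTC. It stood at 4.90 and 3.08 CPM in knock-down, which is 14 counts in each library, and the knock-down libraries were the lowest of the 8. The other 3 groups overlapped. Knock-down was 2.36-fold below NTC (log2 fold change -1.24 ± 0.37, adjusted p = 0.0295) and 2.89-fold below mESC (log2 fold change -1.53 ± 0.36, adjusted p = 0.00374). The call against NTC was lost without the first NTC library or either knock-down library (adjusted p = 0.338, 0.0682 and 0.374) and with DESeq2 (adjusted p = 0.116), and the values within codes 12 and 34 were -1.10 and -1.09. Tgfbr2 was the 1 gene of the 10 whose knock-down level was called below the level in the stem cells while untreated Sca1 and NTC were not (adjusted p = 0.808 and 0.481), and that call was lost without the second knock-down library (adjusted p = 0.12).

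Smad3, the transducer, stood at 11.7 and 13.2 CPM in mESC, 44.2 and 49.9 CPM in untreated Sca1, 48.7 and 44.6 CPM in NTC and 34.7 and 30.3 CPM in knock-down. The untreated Sca1 and NTC libraries overlapped, and the knock-down libraries lay below them and above mESC. Untreated Sca1 was 3.76-fold above mESC (1.91 ± 0.19, adjusted p = 4.51e-07), with 1.87 within code 34 and 1.88 within code 56. Knock-down was 1.44-fold below NTC (log2 fold change -0.53 ± 0.17, adjusted p = 0.0401) and 2.59-fold above mESC (1.37 ± 0.19, adjusted p = 3.83e-05). The call against NTC was lost without any 1 of the 4 libraries compared (adjusted p up to 0.353), with DESeq2 (0.175) and with scaling by library totals alone (0.061).

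The 3 feedback and early-response genes did not share the pattern of the ligand genes. Smad7 stood at 74.2 and 78.1 CPM in mESC, 73.2 and 64.9 CPM in untreated Sca1, 68.1 and 59.7 CPM in NTC and 75.0 and 73.2 CPM in knock-down. No comparison of Smad7 passed the threshold. The log2 differences were -0.14 ± 0.14 for untreated Sca1 against mESC (adjusted p = 0.478) and 0.21 ± 0.13 for knock-down against NTC (adjusted p = 0.343). An adjusted p above the threshold does not show that the levels were equal.

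Pmepa1 was highest in the stem cells, at 52.7 and 70.4 CPM, and stood at 34.6 and 25.2 CPM in untreated Sca1, 30.02 and 30.8 CPM in NTC and 26.6 and 21.3 CPM in knock-down. The mESC libraries were above the other 6, which lay close together. Untreated Sca1 was 2.03-fold below mESC (log2 fold change -1.02 ± 0.20, adjusted p = 0.000561), with -0.60 within code 34 and -1.47 within code 56, and NTC was also 2.03-fold below mESC (adjusted p = 0.000325). Knock-down did not differ from NTC past the threshold (log2 fold change -0.36 ± 0.21, adjusted p = 0.286).

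Klf10 stood at 70.1 and 64.3 CPM in mESC, 53.5 and 35.3 CPM in untreated Sca1, 37.1 and 36.6 CPM in NTC and 51.1 and 57.4 CPM in knock-down. It was the 1 gene of the 10 called higher in knock-down than in NTC (0.57 ± 0.17, adjusted p = 0.0372), with 0.46 within code 12 and 0.64 within code 34. Klf10 lies on chromosome 15, whose 425 genes of at least 10 CPM had a median log2 difference of 0.413 between knock-down and NTC, against 0.016 over all 10413 such genes and -0.156 to 0.049 on the other chromosomes. The part of the whole chromosome in the Klf10 difference was not tested. The call was lost without any 1 of the 4 libraries compared (adjusted p up to 0.327), with DESeq2 (0.081) and with library totals alone (0.136). Klf10 was also lower in untreated Sca1 than in mESC (log2 fold change -0.57 ± 0.17, adjusted p = 0.0157), a call lost without the second untreated Sca1 library (adjusted p = 0.175).

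Counted together, 4 of the 10 genes were called higher in untreated Sca1 than in mESC (Tgfb2, Tgfb3, Ltbp1 and Smad3) and 2 lower (Pmepa1 and Klf10), where 18.7% of all 13966 genes tested were called higher and 16.8% lower. In knock-down against NTC, 6 of the 10 were called lower (Tgfb1, Tgfb2, Tgfb3, Ltbp1, Tgfbr2 and Smad3), where 10.1% of all genes were, and 1 higher (Klf10), where 4.25% of all genes were. Without the first NTC library, or without either knock-down library, 3 were called lower (Tgfb2, Tgfb3 and Ltbp1) and Klf10 was no longer called higher. In NTC against untreated Sca1, 2 of the 10 were called higher (Tgfb2 and Ltbp1), where 3.88% of all genes were. In that comparison 0 were called lower with edgeR, with 0 at an unadjusted p under 0.05 and 0 with DESeq2, where 1.11% of all genes were. The libraries did not overlap for 8 of the 10 genes in untreated Sca1 against mESC, for 10 in knock-down against NTC and for 5 in NTC against untreated Sca1, where they did not for 62.7%, 64% and 53.4% of all genes. Over all genes, 594 were called higher and 1404 lower in knock-down against NTC, which became 259 and 1154 with scaling by library totals alone and 1982 and 2434 in a fit of those groups alone, so the background share depends on the fit. The 10 genes all passed the filter on low counts, Tgfb3 through the untreated Sca1 and NTC libraries and Tgfb2 through those and the knock-down libraries, so these counts lean toward a difference for both. The genes were also chosen with earlier results of these data known, so their counts beside the shares of all genes are a description.

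**Figure D2:**
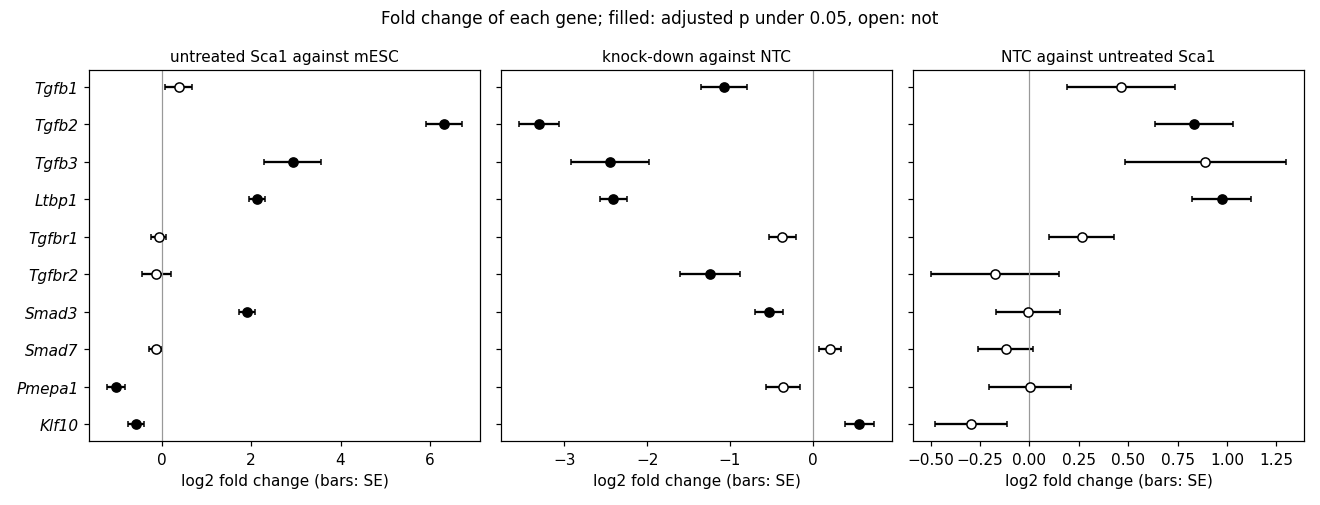
Log2 fold changes of the 10 genes in the 3 comparisons (1 panel each, each with its own horizontal scale); points are edgeR estimates, bars their standard errors, and filled points are called at an adjusted p under 0.05. Tgfb2 has the largest estimates in the first 2 panels, 6.31 in untreated Sca1 against mESC and -3.31 in knock-down against NTC.

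Across the 10 genes, the 4 called higher in untreated Sca1 than in mESC were all called lower in knock-down than in NTC, and Klf10 moved the other way in both. Pmepa1, also called lower in untreated Sca1 than in mESC, was not called in knock-down against NTC. Its estimate there was below 0 as well (log2 fold change -0.36 ± 0.21, adjusted p = 0.286). The 2 comparisons share no library. Of the 2612 genes called higher in the first comparison, 902 (34.5%) were called lower in the second, and of the 2352 called lower in the first, 193 (8.21%) were called higher in the second. For Tgfb2, Tgfb3 and Ltbp1 the calls in both comparisons held in each of the 8 fits with 1 library left out, in the other settings listed with the processing and in the 2 chosen after seeing the data. The knock-down levels of Tgfb2, Ltbp1 and Smad3 nevertheless stayed above those of the stem cells, with 13.5% of all genes called higher in knock-down than in mESC.

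**Figure D3:**
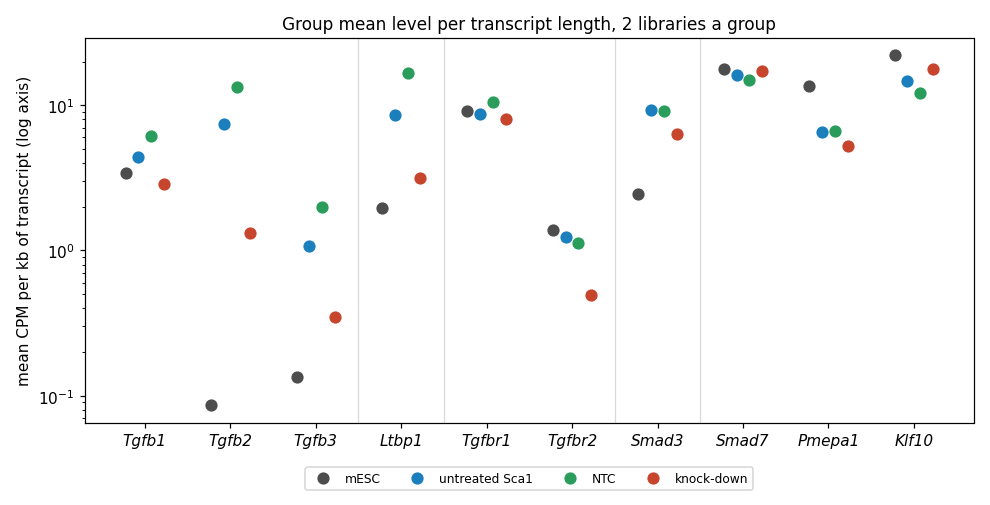
Mean level of each of the 10 genes per kilobase of transcript in the 4 groups (CPM per kilobase, log axis; each point is the mean of 2 libraries). In mESC Klf10 (22.1) and Smad7 (17.8) are highest and Tgfb2 (0.086) lowest, and in NTC Ltbp1 (16.8), Smad7 (14.9) and Tgfb2 (13.3) are the top 3.

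The other genes of the pathway were followed in 3 lists. These too were drawn up with earlier results of these data known, so their counts beside the shares of all genes are a description. The first list held 14 genes of latency and activation, of which 11 were tested. In untreated Sca1 against mESC 5 were called higher and 1 lower (Ltbp4), beside 18.7% and 16.8% of all genes, with a median log2 difference of 1.29 against -0.01 over all genes. In knock-down against NTC 8 were called lower, beside 10.1% of all genes, with a median of -1.58 against 0.00, and 0 were called higher with edgeR (0 at an unadjusted p under 0.05 and 0 with DESeq2). Dcn, which is on this list, had means of 0 CPM in mESC and 0.29 CPM in knock-down. It passed the filter on low counts through the untreated Sca1 and NTC libraries, so the counts of this list lean toward a difference for it. Fbn2 and Fbn1 encode the fibrillins on which latent complexes are deposited. Fbn2 stood at 4.12 and 4.84 CPM in mESC, 77.6 and 87.0 CPM in untreated Sca1, 207 and 176 CPM in NTC and 11.6 and 9.01 CPM in knock-down. Its log2 differences were 4.18 ± 0.21 for untreated Sca1 against mESC (adjusted p = 8.11e-11) and -4.25 ± 0.18 for knock-down against NTC (adjusted p = 1.72e-11).

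Thbs1 encodes thrombospondin 1, an activator of latent TGF-beta. It stood at 1.83 and 1.54 CPM in mESC, 107 and 102 CPM in untreated Sca1, 168 and 171 CPM in NTC and 23.5 and 26.6 CPM in knock-down, the same order of groups as Tgfb2. Fbn1 was higher in untreated Sca1 than in mESC by 2.07 ± 0.17 and lower in knock-down than in NTC by a log2 fold change of -3.39 ± 0.17 (adjusted p = 6.48e-08 and 2.1e-10). Bgn, the proteoglycan biglycan, was higher in untreated Sca1 by 5.70 ± 0.42 (adjusted p = 4.54e-07). Itgav, the integrin chain that binds the ligand's propeptide, was not called between untreated Sca1 and mESC (0.25 ± 0.16, adjusted p = 0.225) and was lower in knock-down than in NTC by a log2 fold change of -1.58 ± 0.15 (adjusted p = 8.57e-07).

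The second list held 24 genes for accessory receptors, SMAD partners and inhibitors. In untreated Sca1 against mESC 6 were called higher and 5 lower, which is near the 18.7% and 16.8% of all genes, with a median of 0.21. Skil, a SMAD co-repressor (1.54 ± 0.15, adjusted p = 3.1e-07), Tgfbr3, the type III receptor betaglycan (1.45 ± 0.26, adjusted p = 0.00027), and Bambi, a decoy receptor (1.43 ± 0.27, adjusted p = 0.000436), were higher. Eng, the endothelial co-receptor endoglin, was lower (log2 fold change -0.99 ± 0.16, adjusted p = 0.000102). In knock-down against NTC 1 of the 24 was called lower beside 10.1% of all genes, Bambi (log2 fold change -1.17 ± 0.24, adjusted p = 0.0024), which was lost without the second knock-down library. In that comparison 0 were called higher with edgeR (0 at an unadjusted p under 0.05 and 0 with DESeq2), and the median was 0.03. A fit of those groups alone, and a fit without the libraries of code 56, each called 2 of the list higher and 3 lower. Smad2 and Smad4, the partners of Smad3 in signalling, had log2 differences of 0.03 ± 0.13 and 0.10 ± 0.12 there (adjusted p = 0.901 and 0.681).

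The third list held 30 genes that TGF-beta is known to induce in mesenchymal cells, of which 29 were tested. In untreated Sca1 against mESC 20 were called higher and 3 lower (Fn1, Itga5 and Timp1), beside 18.7% and 16.8% of all genes, with a median of 1.71. In knock-down against NTC 19 were called lower, beside 10.1% of all genes, with a median of -1.41, and 0 were called higher with edgeR (0 at an unadjusted p under 0.05 and 0 with DESeq2). Without the second knock-down library 10 were called lower. Col3a1, a fibrillar collagen gene, was counted once in each mESC library and stood at 239 and 263 CPM in untreated Sca1, 656 and 659 CPM in NTC and 6.30 and 7.03 CPM in knock-down. Its ratio of counts between untreated Sca1 and mESC was 1109 (interval 306.5 to 9168). Postn, which encodes periostin, had 0 counts in the mESC and knock-down libraries. With those set at 3 counts per group, it was at least 42.1-fold higher in untreated Sca1 than in mESC and at least 67.1-fold lower in knock-down than in NTC. Postn, Lox, Ankrd1 and Snai2 had means of at most 0.77 CPM in mESC and 0.72 CPM in knock-down. They passed the filter on low counts through the untreated Sca1 and NTC libraries, so the counts of this list lean toward a difference for them.

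Not every response gene was called lower with the ligand genes. Ccn2, a connective tissue growth factor gene, was higher in untreated Sca1 than in mESC (1.33 ± 0.16, adjusted p = 5.93e-06) and had a log2 difference of 0.22 ± 0.14 in knock-down against NTC (adjusted p = 0.346). Ccn2, Smad2, Smad4, Ltbp4, Fn1, Itga5, Timp1, Dcn, Lox, Ankrd1 and Snai2 were named after their values were seen. In NTC against untreated Sca1 10 of the 29 response genes were called higher, beside 3.88% of all genes, among them Col3a1 (1.39 ± 0.11, adjusted p = 2.84e-06), Col1a1 (1.38 ± 0.15, adjusted p = 9.69e-05), Col5a1 (1.31 ± 0.15, adjusted p = 0.000103) and Fn1 (1.06 ± 0.14, adjusted p = 0.000338), and 5 of the 11 latency genes. Without the first NTC library these counts were 5 and 2.

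**Figure D4:**
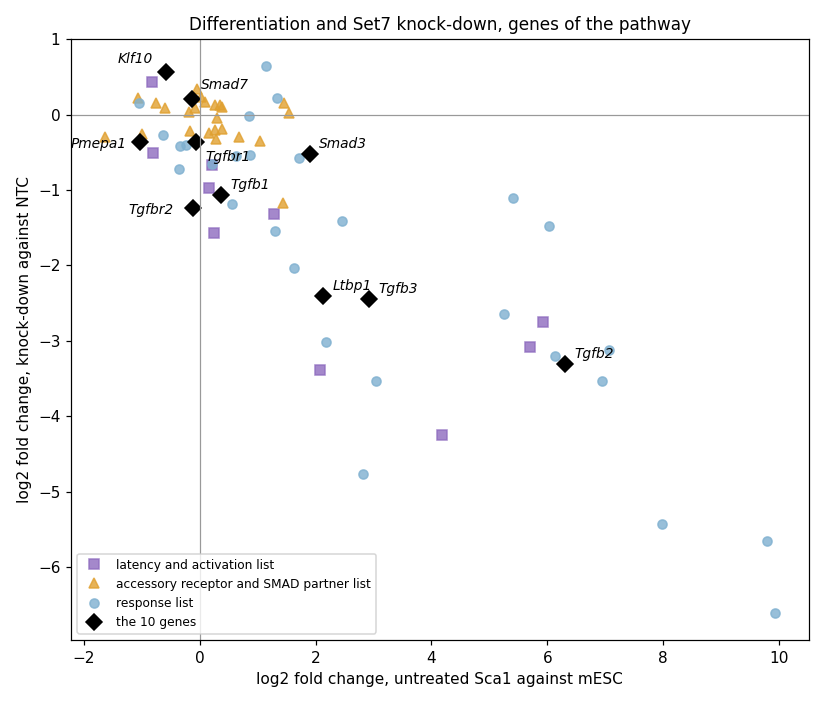
Log2 fold change in untreated Sca1 against mESC (horizontal) and in knock-down against NTC (vertical) for the 10 genes and the 3 pathway lists, 1 point per gene, with Postn and Dcn left out because they had 0 counts in a compared group. Latency and response genes spread toward higher values on the horizontal and lower values on the vertical axis, while the accessory receptors and SMAD partners stay near 0 on the vertical axis apart from Bambi at -1.17; Col3a1 and Tnc, at the lower right, rest on 2 and 1 reads in mESC.

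Sums of cell type markers also differed between the groups, not all in the same direction. Those of mesenchyme, smooth muscle and neural markers were higher in untreated Sca1 than in mESC and lower in knock-down than in NTC. Those of visceral endoderm and endothelial markers were lower in untreated Sca1 than in mESC. The 8 fibroblast and mesenchyme markers summed to 227 to 256 CPM in mESC, 860 to 935 CPM in untreated Sca1, 1992 to 2053 CPM in NTC and 190 to 198 CPM in knock-down, with Postn at 0 in mESC and knock-down. Col1a1, Col1a2, Col3a1, Pdgfrb, Thy1 and Twist1 had higher means in knock-down than in mESC. Most of the mESC sum was Pdgfra, with means of 216 CPM in mESC, 84.5 CPM in untreated Sca1, 169 CPM in NTC and 103 CPM in knock-down. The 7 smooth muscle markers summed to 40.1 to 47.9 CPM, 585 to 944 CPM, 581 to 606 CPM and 163 to 172 CPM in the same groups, with no marker at 0. The response list shares 4 genes with the mesenchyme markers and 3 with the smooth muscle markers. The 5 visceral endoderm markers summed to 500 to 614 CPM in mESC, 104 to 114 CPM in untreated Sca1, 336 to 347 CPM in NTC and 392 to 457 CPM in knock-down, with Apoa1 at 0 in mESC. Most of that sum was Cubn, with means of 498, 101, 320 and 379 CPM in the same groups. The 4 neural markers summed to 55.9 to 61.6 CPM in mESC, 201 to 219 CPM in untreated Sca1, 208 to 241 CPM in NTC and 98.9 to 107 CPM in knock-down. Among them, Nes had means of 9.23, 168, 178 and 39.2 CPM in the same groups and Tubb3 46.5, 37.9, 43.0 and 61.7 CPM. Pax6 and Sox1 peaked at means of 1.73 and 2.78 CPM. The 4 trophectoderm markers summed to 7.26 to 8.01 CPM in mESC and 91 to 106 CPM in the 6 Sca1 libraries. Most of that sum was Cdx2, with means of 6.63 CPM in mESC, 74.2 CPM in untreated Sca1, 76.2 CPM in NTC and 76.3 CPM in knock-down. Krt7, Gata3 and Elf5 also had higher means in each Sca1 group than in mESC, with Elf5 at no more than 2.98 CPM. The 5 endothelial markers summed to 169 to 186 CPM in mESC, 49.5 to 53.2 CPM in untreated Sca1, 93.4 to 100.1 CPM in NTC and 100.5 to 116 CPM in knock-down. Most of that sum was Pecam1, with means of 163, 44.4, 83.6 and 96.7 CPM in the same groups. No neural, trophectoderm or endothelial marker was at 0 in a group. Whether the make-up of the cultures had a part in the differences of Tgfb2, Tgfb3, Ltbp1, Smad3 and the pathway lists was not tested. The 4 matched blood cell markers summed to no more than 3.89 CPM in any library.

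The genes whose levels over the 8 libraries were most like those of a TGF-beta gene were sought for the 5 called in both main comparisons, among 8515 genes of at least 20 CPM on average. Likeness was the root mean square difference of log2 CPM after each gene was centred on its own mean. For Tgfb2 they were Dchs1, a giant cadherin gene (0.403), Thbs1 (0.453) and Pcdh7, a protocadherin gene (0.49), with Tgfb2 itself spread by an SD of 2.48. For Tgfb3 they were Plat, which encodes tissue plasminogen activator (0.173), Selenon (0.228) and Ltbp1 (0.248). For Ltbp1 they were Selenon (0.161), the procollagen proteinase gene Bmp1 (0.185) and the membrane metalloproteinase gene Mmp14 (0.21). For Smad3 they were B4galt2, Eif4g3 and Arhgef5 (0.092 to 0.117), and for Klf10 Trim2, Impa2 and Trim6 (0.094 to 0.1). Tgfb3, Ltbp1, Smad3 and Klf10 were themselves spread by an SD of 1.148, 1.196, 0.769 and 0.359, so the differences are not on 1 scale between these genes.

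Among the 10 genes themselves the closest pair by the same measure were Smad7 and Tgfbr1 (0.247), whose levels both varied little, followed by Tgfb3 and Ltbp1 (0.248). The farthest apart were Tgfb2 and Pmepa1 (2.857). These distances describe 8 libraries in 4 groups and carry no test.

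**Figure D5:**
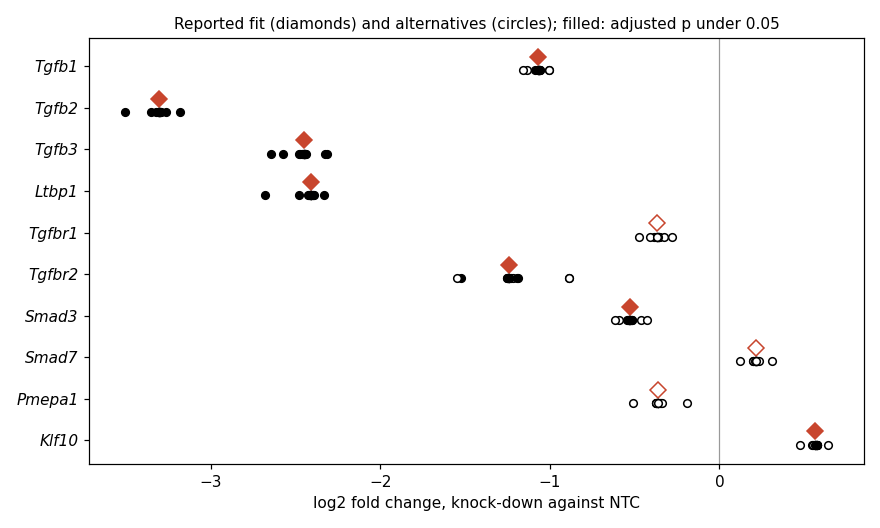
Log2 fold changes of the 10 genes in knock-down against NTC under the reported fit (diamonds) and under the alternative settings and the fits that left out 1 library (circles); filled symbols have an adjusted p under 0.05. The circles of Tgfb2, Tgfb3 and Ltbp1 are all filled and lie below -2, and those of Tgfb1, Tgfbr1, Tgfbr2, Smad3 and Klf10 are filled in part.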

How the data were processed

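The authors deposited whole-number read counts per RefSeq transcript for 8 libraries, and these counts were used unchanged. Per the submitters' processing notes, the tools were edgeR 0.19, BWA 0.5.9 and SAMtools 0.1.17, with no role stated for any. Genome build, counter, annotation and strandedness were not given in the sources used here. Reads shared by rows may be counted in each: both Tgfbr2 rows held identical counts. Of 29614 rows, 28985 were named from a RefSeq gene table and 173 from GENCODE vM21, and 456 kept their identifier, which gave 23483 genes.

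Genes that passed filterByExpr (13966) were scaled by TMM and fitted over the 8 libraries at once with edgeR 4.0.16 (R 4.3.3), with a mean for each group, 4 residual degrees of freedom and a common dispersion of 0.0133. Robust quasi-likelihood F tests were adjusted by the Benjamini-Hochberg method over all genes and called at 0.05. Each SE was obtained by dividing the log2 fold change by the root of F. Ratios of few counts carry exact 95% intervals for counting error alone. Log2 CPM used a prior count of 2. Transcript lengths came from GENCODE vM21, and promoter windows from RefSeq (GRCm38.p6). Groups came from the sample labels.

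The members and lists were chosen with earlier results of these data known. The text names the 10 members, Setd7 and Ly6a, up to 4 called genes of smallest p in each list and comparison, and the 3 genes most like each member called in both untreated Sca1 against mESC and knock-down against NTC. The fit was tested on simulated data in which 200 genes were changed by known folds. There it recovered 23.9% of 1.5-fold, 65.7% of 2-fold and 87.9% of 4-fold changes in untreated Sca1 against mESC. For knock-down against NTC it recovered 37.3%, 74.6% and 92.4% of the same sizes. For NTC against untreated Sca1 it recovered 28.4%, 49.3% and 90.9%. It called 5, 1 and 8 unchanged genes. All 4 groups were simulated with the same spread, set by a gene's mean level. The wider spread within mESC and within untreated Sca1 was therefore not simulated, and these rates and calls do not cover it. Alternatives were RLE factors, library totals, no filter, a 5 CPM filter, DESeq2 1.42.0, the compared groups alone, 2 replicate blocks and each library left out.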

Additional observations from a re-analysis of the deposited data

How the results depend on the processing

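Depth limits Tgfb2 and Tgfb3 most, with 4 reads each in the mESC group, and the arms of 2 libraries limit all differences under about 2-fold; where 1 library was left out, the lone one was assumed to vary like the other groups. Between untreated Sca1 and mESC and between knock-down and NTC, the calls of Tgfb2, Tgfb3 and Ltbp1 were kept under every setting run.

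With 1 library left out, the log2 fold changes in knock-down against NTC ran from -1.157 to -1.004 for Tgfb1, -1.55 to -0.886 for Tgfbr2, -0.617 to -0.426 for Smad3 and 0.473 to 0.642 for Klf10, with calls lost in some fits. In untreated Sca1 against mESC they ran from -0.924 to -0.323 for Klf10, -0.267 to 0.098 for Tgfbr1 and -0.404 to 0.089 for Tgfbr2. In NTC against untreated Sca1 they ran from 0.789 to 0.878 for Tgfb2, -0.518 to 0.117 for Tgfbr2, -0.096 to 0.075 for Smad3, -0.19 to 0.274 for Pmepa1 and -0.54 to 0.062 for Klf10. Against mESC they ran from -0.456 to 0.04 for Tgfb1 in knock-down and from -0.635 to 0.001 for Tgfbr2 in NTC, and from -0.257 to 0.101 for Tgfbr1 in knock-down against untreated Sca1. Genes called ran from 111 to 1034 higher and 537 to 1793 lower in knock-down against NTC, lowest without the second knock-down library, and from 54 to 988 higher and 2 to 529 lower in NTC against untreated Sca1, lowest without the first and the second NTC library.

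DESeq2 no longer called Tgfb1 (-1.067), Tgfbr2 (-1.217), Smad3 (-0.516) and Klf10 (0.575) in knock-down against NTC, where it called 370 genes higher and 908 lower. Library totals alone lost Smad3 (-0.545) and Klf10 (0.547) there, with 259 genes higher, lost Klf10 in untreated Sca1 against mESC (-0.537), and called 18 genes lower in NTC against untreated Sca1. A fit of the compared groups alone lost Klf10 in untreated Sca1 against mESC (-0.574), called Tgfbr1 in knock-down against NTC (-0.356), and called 1982 genes higher and 2434 lower there and 348 lower in NTC against untreated Sca1. Without the filter 343 were called lower in that comparison. Differences near 0 changed sign in NTC against untreated Sca1: Pmepa1 with RLE factors (-0.008), DESeq2 (-0.002) and the compared groups alone (-0.019), and Smad3 with library totals (0.088) and no filter (0.004). Smad7 did so in knock-down against mESC with library totals (0.066). The cause was not tested.

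Leaving out both libraries of code 56, chosen after seeing the data, lost Klf10 in untreated Sca1 against mESC (-0.376) and turned Tgfbr1 there (0.26), called Tgfbr1 in knock-down against NTC (-0.36) with 1957 genes higher and 2505 lower, and called Klf10 in NTC against untreated Sca1 (-0.548) with 1300 higher and 1086 lower. It turned Smad3 (0.066) and Pmepa1 (-0.197) in the last and Tgfbr1 in knock-down against mESC (0.001). Leaving out NR_046233, also chosen after seeing the data, changed no call of a member.

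The replicate numbers of the titles go with the library codes in untreated Sca1 against mESC and in knock-down against NTC, but not in NTC against untreated Sca1, and the labels do not say what the codes stand for. Deviations of same-numbered libraries correlated at 0.265, 0.053 and -0.029 in the 3 comparisons, so a pairing is not established. A replicate block on them gave 658 genes higher and 1479 lower in knock-down against NTC. A replicate block on the number in the descriptions gave 1054 higher there, 819 higher and 442 lower in NTC against untreated Sca1, and -0.011 for Pmepa1 in the latter; neither block changed a call of a member in the 3 comparisons.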
